A study of Mus musculus with 24 samples.

Results

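The genes Prg4, 2210407C18Rik, Mptx1 and Enpep were measured over 2 days in differentiated MMH-D3, a line of immortalized hepatocytes from mice that carried an active MET transgene. They had been picked from the same arrays for large falls between 12 and 58 h, so the falls described here are a description of that choice and carry no test. Each gene had 1 probe set whose platform annotation gave its symbol alone, which made 4 probe sets of the 45101 in the table. Confluent cells had been differentiated for 14 days in medium with 2% DMSO and then synchronized by a serum shock, per the labels' protocols. The series comprised 24 arrays at 2 h steps from 12 to 58 h after the shock, with 1 array per time point. No unshocked culture was among the samples, so changes are changes with time after the shock. Nothing in the labels says that time points came from separate cultures, and the scatter of the arrays about a fitted curve was the only error available, part of which may be technical.

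Prg4 encodes lubricin, a heavily glycosylated secreted protein best known for lubricating joints. Enpep encodes glutamyl aminopeptidase, a membrane enzyme that trims acidic residues from peptides and converts angiotensin II to angiotensin III, and it is known from the brush borders of kidney and small intestine. Mptx1 encodes mucosal pentraxin, a rodent relative of the plasma proteins CRP and serum amyloid P that is known from the intestinal mucosa.

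The labelled cell type was only partly borne out by its markers. Of 15 hepatocyte markers, 13 had a probe set with their symbol alone and 8 were measured, that is, passed a filter of a log2 value of at least 5 on at least 6 arrays. Alb averaged 15.97 ± 0.245 and Hnf4a 11.93 ± 0.197 (SD, n = 24), while Cps1 and Tat stood at the lowest value of the table, 2.17. Of 41 genes listed as intestinal epithelium and brush border, 27 were measured, among them the intestinal transcription factor Cdx2 at 8.02 ± 0.290. Of the 40 on the array, 11 averaged below 2.5. These were Cdx1, Isx, Lct, Slc5a1, Slc26a3, Car1 and Ang4 at 2.17, Agr2 at 2.21, Muc2 at 2.37, and Zg16 and Ephb3 at 2.39. They are named after their values were seen. Of 8 mesothelial markers 4 were measured, with Msln at 14.22, Upk1b at 11.90, Wt1 at 10.87 and Gpm6a at 8.75. The others were Upk3b at 3.22 and Lrrn4, Muc16 and Cdh11 at 2.17. Of 5 bile duct markers on the array 4 were measured, with Krt19 at 15.44, Krt7 at 12.53, Epcam at 10.83 and Sox9 at 8.65. Cftr stood at 2.17. Of 7 macrophage markers 3 were measured, with Cd14 at 14.79, Cd68 at 6.15 and Csf1r at 5.36. Ptprc, Clec4f and Marco stood at 2.17 and Adgre1 at 2.20. The bile duct and macrophage levels were already known when they were chosen for mention. None of 9 fibroblast and stellate cell markers and none of 5 endothelial markers was measured. In these bulk RNA samples, fewer cells of a type and less RNA per cell cannot be told apart.

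The 300 bases from 250 before to 50 after the annotated start are shown for 2210407C18Rik, Mptx1 and Enpep, which all dropped before 42 h and of which Enpep alone returned to its first level. The promoter of Prg4 is not shown. The sequences are from RefSeq (GRCm38.p6), read 5′ to 3′ on the gene's strand. Capitals mark matches on either strand to any motif searched. These were the E-box CACGTG, which clock factors bind, and the D-box TTATGTAA of the PAR bZIP factors. The cAMP response element was searched as TGACGTCA and the HNF4 motif as CAAAGTCCA. The full HNF1 motif was searched as GTTAAT followed, after 1 base, by its reverse complement, and also by its first part alone. The CDX motif was TTTATNG, the GATA motif was taken to be AGATAA, and the TATA box was written as TATAAA in the search. The first part of the HNF1 motif was added after the promoters had been read.
2210407C18Rik, chr11:58613443-58613742, minus strand: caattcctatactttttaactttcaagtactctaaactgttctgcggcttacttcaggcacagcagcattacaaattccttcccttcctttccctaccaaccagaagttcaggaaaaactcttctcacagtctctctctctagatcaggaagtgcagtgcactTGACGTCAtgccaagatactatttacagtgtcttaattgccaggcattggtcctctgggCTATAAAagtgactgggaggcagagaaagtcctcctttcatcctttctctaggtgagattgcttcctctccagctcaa
Mptx1, chr1:174330268-174330567, plus strand: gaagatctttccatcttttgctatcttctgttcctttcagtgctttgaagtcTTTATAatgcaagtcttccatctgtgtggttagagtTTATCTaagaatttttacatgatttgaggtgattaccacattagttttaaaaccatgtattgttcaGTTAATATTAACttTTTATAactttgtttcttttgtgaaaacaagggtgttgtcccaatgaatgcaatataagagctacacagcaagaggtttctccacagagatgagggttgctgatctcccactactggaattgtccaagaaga
Enpep, chr3:129332700-129332999, minus strand: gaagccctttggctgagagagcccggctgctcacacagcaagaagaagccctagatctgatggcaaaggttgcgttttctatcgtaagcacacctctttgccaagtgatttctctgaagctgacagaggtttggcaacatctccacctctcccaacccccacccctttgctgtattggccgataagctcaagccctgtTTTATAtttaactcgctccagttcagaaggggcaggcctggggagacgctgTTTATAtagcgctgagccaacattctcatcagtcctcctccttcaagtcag

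The promoter of 2210407C18Rik held TGACGTCA at −87, counted from the start, a motif present in 1.79% of 32851 promoters of this length. It also held TATAAA, whose match starts at −27 and overlaps a match to TTTATNG at −28, a motif in 10.9% of promoters. The promoter of Mptx1 held a match to AGATAA and 2 to GTTAAT that stand back to back at −96 and −90. GTTAAT occurred in 7.10% of promoters and AGATAA in 11.2%. TATAAA, in 13.6% of promoters, occurred in all 3, but only in 2210407C18Rik on the gene's own strand. On the opposite strand it began at −198 and −82 in Mptx1 and at −52 and −1 in Enpep. The full HNF1 motif, CACGTG, TTATGTAA and CAAAGTCCA were in none of the 3 windows. These matches describe letters and not binding.

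Prg4 fell fast in the first day of the course and then stayed low. The gene lies on chromosome 1 (150449412 to 150466221). Its log2 values were 8.27, 7.77, 7.24 and 6.94 at 12 to 18 h, and 6.75, 6.81, 5.27 and 4.95 at 20 to 26 h. At 28 to 34 h they were 4.10, 4.25, 3.40 and 3.18, and at 36 to 42 h 3.24, 2.98, 3.17 and 3.07. The last 8 arrays gave 3.03, 2.98, 3.07, 3.24, 2.98, 3.08, 2.69 and 2.68. Every array from 26 h on lay below 5, and every earlier array above it. Prg4 therefore passed the filter only through its 7 arrays before 26 h, and its later levels were dim.

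The decline of Prg4 flattened at a low level. On the log2 scale the slope was −1.52 ± 0.28 per 10 h at 12 to 22 h and −2.14 ± 0.27 at 24 to 34 h (SE, n = 6 arrays each), against −0.18 ± 0.11 at 36 to 46 h. Over 12 to 34 h the transcript halved every 4.16 h (95% interval 3.67 to 4.80, n = 12), in a window that includes dim arrays. Over 12 to 22 h, with all values above 5, it halved every 6.58 h (95% interval 4.37 to 13.2, n = 6). An exponential decay to a constant floor, fitted to all 24 arrays, gave a halving time of 3.45 h (95% interval 3.04 to 3.96) and a floor of 2.86 (2.63 to 3.07). Its residual SD was 0.317, against 0.851 for a straight line on the log2 scale. The S-shaped logistic curve left less, 0.253 with a floor of 2.95, since the values were level at 20 and 22 h and then dropped by 1.54 to the 24 h array. The midpoint of the log2 fall was crossed at 24.4 h, or 22.1 h on the linear scale. The floor lay 0.692 above the lowest value of the table, which Prg4 did not reach on any array. The same value, 2.97895, recurred on the arrays at 38, 46 and 52 h, and 3.07432 on those at 42 and 48 h. Whether the floor is transcript left in the cells or the background of this probe set was not tested. The 58 h array stood 48.2-fold below the 12 h array on the linear scale, and because the late values are dim this fold is not a measured size.

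**Figure D1:**
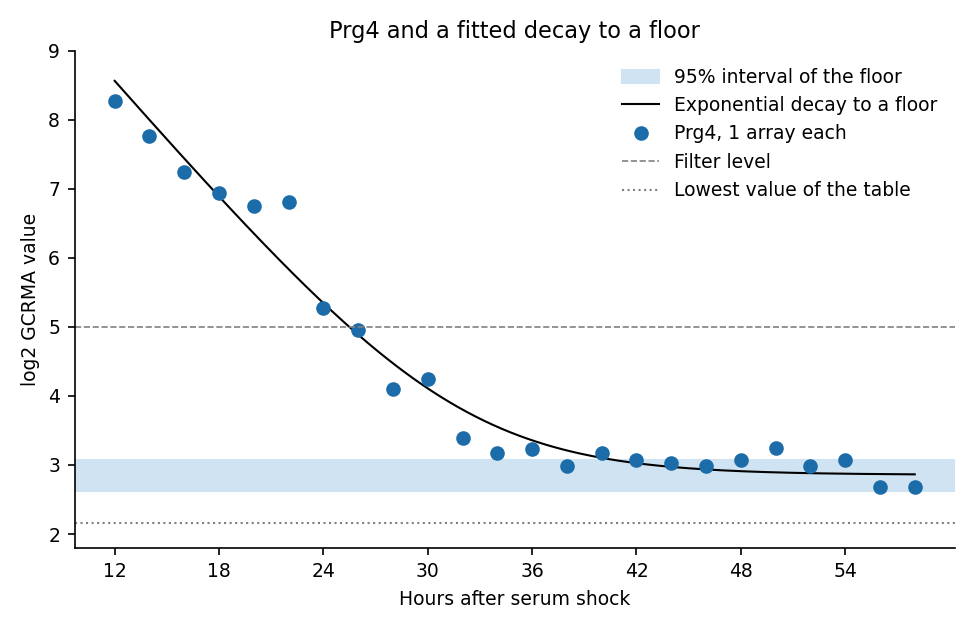
Log2 GCRMA values of Prg4 on 24 arrays against hours after serum shock, with the fitted exponential decay to a floor (line), the 95% interval of the floor (band), the filter level of 5 (dashed) and the lowest value of the table (dotted). The points flatten from about 34 h at a level above the dotted line.

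The gene 2210407C18Rik fell over the whole course, and most steadily from 36 h on. It lies on chromosome 11 (58608204 to 58613492). Its log2 values were 10.41, 11.08, 10.10 and 10.90 at 12 to 18 h, and 10.29, 10.79, 9.66 and 9.13 at 20 to 26 h. At 28 to 34 h they were 9.14, 9.60, 9.70 and 9.20, and at 36 to 42 h 8.98, 8.48, 8.32 and 8.08. The last 8 arrays gave 8.15, 7.89, 7.90, 7.41, 7.34, 6.86, 6.55 and 6.64. Each block of 4 arrays (8 h) lay below the block before it in its mean, and all values stayed above 5, so no floor was seen.

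A straight line on the log2 scale left a residual SD of 0.353 for 2210407C18Rik, against 0.345 for a quadratic and 0.361 for a decay to a floor, so added terms gained little. The rate was not even within it. The slope per 10 h was 0.041 ± 0.51 at 12 to 22 h, −0.014 ± 0.37 at 24 to 34 h, −0.95 ± 0.19 at 36 to 46 h and −1.34 ± 0.20 at 48 to 58 h (SE, n = 6 arrays each), with a drop of the level between the first 2 windows. The line corresponds to a halving every 10.7 h (95% interval 9.57 to 12.1, n = 24). Over longer windows the slope was −1.22 ± 0.11 per 10 h at 44 to 58 h, against −0.88 ± 0.11 at 12 to 42 h (SE, n = 8 and 16). The midpoint of the log2 fall came at 37.0 h, and on the linear scale the midpoint level was passed at 23.7 h. Relative to 12 to 18 h, the geometric mean level was 63.3% at 20 to 26 h, 43.1% at 28 to 34 h, 22.3% at 36 to 42 h, 14.5% at 44 to 50 h and 7.28% at 52 to 58 h. Of 23 steps between consecutive arrays 9 went up, the largest by 0.80 to the 18 h array.

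Mptx1 fell in stages. It lies on chromosome 1 (174330518 to 174332877). Its log2 values were 13.68, 14.16, 13.58 and 14.15 at 12 to 18 h, and 13.21, 13.35, 13.07 and 11.68 at 20 to 26 h. At 28 to 34 h they were 12.03, 12.81, 12.76 and 12.57, and at 36 to 42 h 12.26, 11.93, 11.48 and 11.07. The last 8 arrays gave 11.89, 11.76, 12.15, 10.49, 10.86, 10.86, 9.97 and 9.81. The level dipped at 26 and 28 h, recovered by 30 h, sank again to 42 h, stood higher at 44 to 48 h and then dropped by 1.66 to the 50 h array.

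Because of these dips the midpoint of the log2 fall of Mptx1 was crossed at 25.8 h and again at 36.8 h. On the linear scale the midpoint level was passed at 24.1 h. A straight line gave a halving every 12.4 h (95% interval 10.5 to 15.4, n = 24) with a residual SD of 0.501. Relative to 12 to 18 h its level was 47.9% at 20 to 26 h, 39.2% at 28 to 34 h, 21.7% at 36 to 42 h, 20.1% at 44 to 50 h and 8.74% at 52 to 58 h. The lowest value, 9.81 at 58 h, was far above the lowest value of the table, and no floor was seen. Mptx2, a neighbouring paralog, had 0 probe sets under its symbol, and its 300-base promoter window was identical to that of Mptx1 at 89.2% of 278 aligned bases. Whether transcripts of Mptx2 add to the Mptx1 signal was not tested.

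Enpep did not fall steadily, although it had been picked as a steadily falling gene. It lies on chromosome 3 (129269177 to 129332749). Its log2 values were 8.78, 8.25, 7.93 and 8.45 at 12 to 18 h, and 7.67, 7.84, 7.14 and 6.43 at 20 to 26 h. At 28 to 34 h they were 6.25, 7.45, 7.39 and 7.45, and at 36 to 42 h 7.15, 6.92, 6.56 and 6.05. The last 8 arrays gave 7.38, 8.26, 8.29, 8.50, 8.59, 8.80, 8.41 and 8.40. Enpep thus had a trough at 28 h, a partial recovery to 34 h, a deeper trough at 42 h and a return to its first level.

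At 42 h Enpep was 2.30 below its mean of 12 to 18 h on the log2 scale, a 4.93-fold difference. It was higher by 1.32 at 44 h and by 2.20 at 46 h than at 42 h. The midpoint between the 42 h value and the mean of the last 4 arrays was passed at 43.9 h. The mean was 8.55 ± 0.19 at 52 to 58 h, against 8.35 ± 0.35 at 12 to 18 h (SD, n = 4 each), a difference of 0.19 that is smaller than the spread at 12 to 18 h. From 12 to 42 h alone the slope was −0.65 ± 0.14 per 10 h, a halving every 15.3 h (95% interval 10.5 to 28.1, n = 16). No half-fall time over 46 h exists for this gene.

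**Figure D2:**
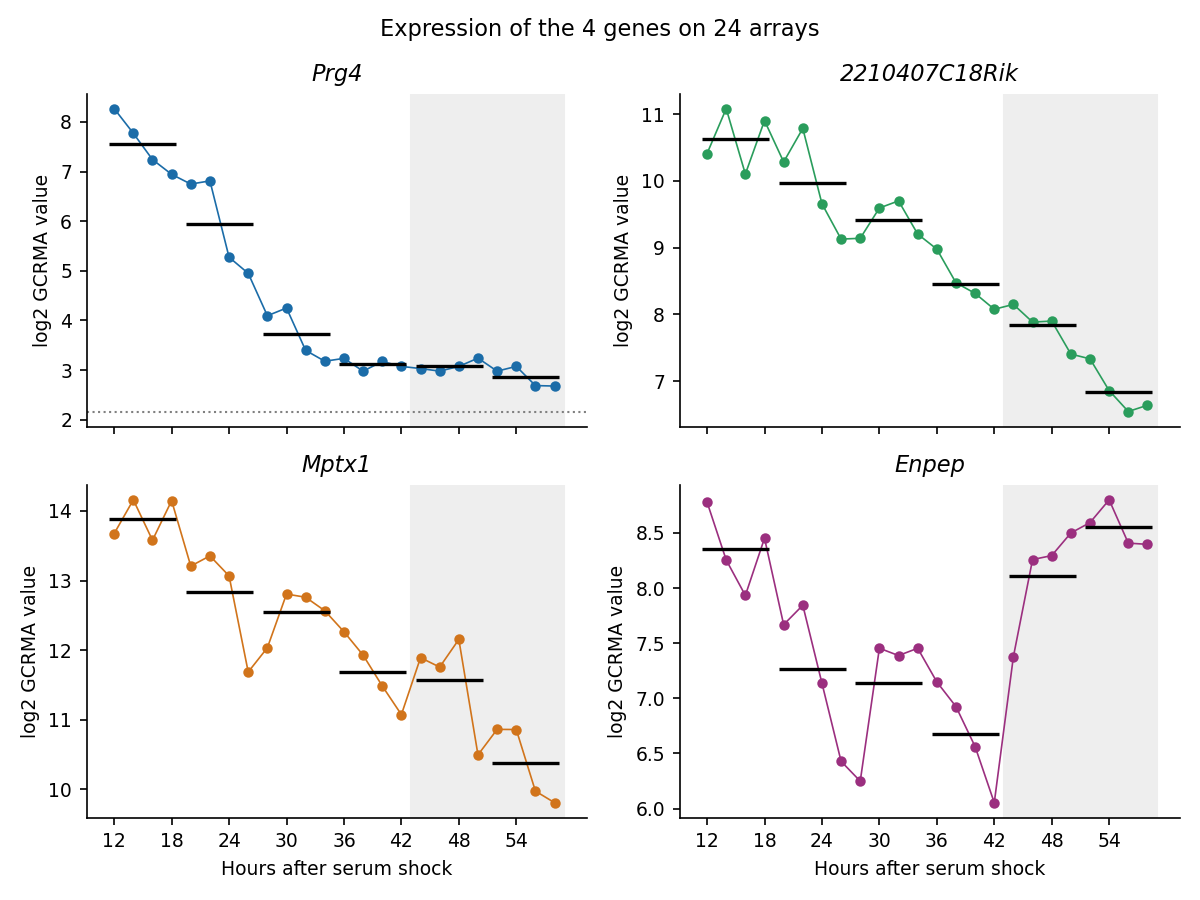
Log2 GCRMA values of the 4 genes on 24 arrays against hours after serum shock, 1 panel per gene with its own axis. Points are single arrays, black bars are means of 4 arrays, grey marks 44 to 58 h, and the dotted line under Prg4 is the lowest value of the table. Prg4 flattens, 2210407C18Rik and Mptx1 keep falling, and Enpep returns to its first level after 42 h.

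**Figure D3:**
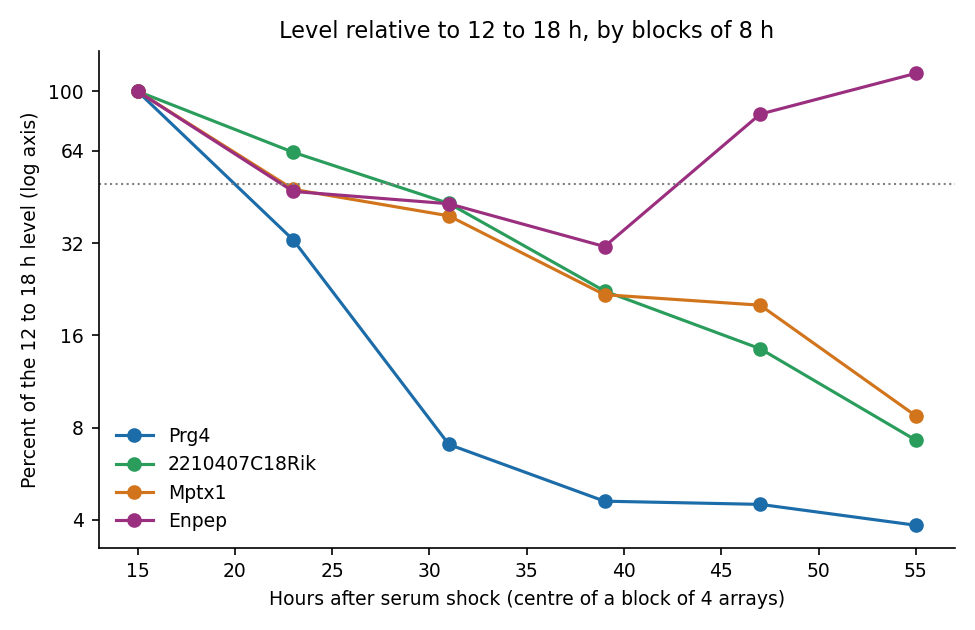
Geometric mean level of the 4 genes in blocks of 4 arrays as a percent of the 12 to 18 h block, on a log axis, against the centre of the block in hours after serum shock. The dotted line marks 50%. Prg4 stood at 7.05% by 28 to 34 h, and Enpep at 114% at 52 to 58 h.

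The shapes were compared by a quadratic term, a step at 44 h and a 24 h rhythm. The genes had been picked as steadily falling. A missing curvature or step in 2210407C18Rik or Mptx1 is therefore partly set by that choice. The time of the step was taken from a break already seen in these data. The model was fitted with limma to all 18526 probe sets that passed the filter, with Benjamini-Hochberg adjustment over them. It held a linear change, a 24 h cosine and sine and, in turn, a quadratic term or a step at 44 h. The quadratic term, given as the log2 distance of the ends above the centre, was positive for Enpep at 1.94 ± 0.33 (SE, n = 24, limma adjusted p = 0.000133). It did not pass the threshold for 2210407C18Rik at −0.31 ± 0.22 (limma adjusted p = 0.282) or Mptx1 at −0.15 ± 0.31 (limma adjusted p = 0.744). So 1 of these 3 was called positive, against 18.5% of all probe sets, and 0 negative, against 13.2%. For Prg4, kept by the filter only through its early high arrays and dim on the others, the term of 2.47 ± 0.17 is given as a description with no test. The call for Enpep was lost without the arrays at 12 to 18 h (1.37, limma adjusted p = 0.262) or with a step at 44 h in the fit (0.72, limma adjusted p = 0.511).

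The step at 44 h, a break that 26.2% of probe sets showed upward and 15.5% downward, was called upward for Enpep. Its estimate was 2.66 ± 0.34 upward on the log2 scale (SE, n = 24, limma adjusted p = 2.28e-06), and 1.97 with the quadratic term in the same fit (limma adjusted p = 0.0151). The values of Prg4 were level and dim there, at 3.03 at 44 h, against 3.07 at 42 h. Its fitted step of 2.32 in the model with a linear trend is therefore no measured rise, and it was −0.14 with the quadratic term. 2210407C18Rik showed −0.13 ± 0.28 and Mptx1 0.54 ± 0.37, neither past the threshold (limma adjusted p = 0.743 and 0.246). With the quadratic term Mptx1 was called, at 1.72 (limma adjusted p = 0.0245). A break at 44 h was thus called in Enpep in both fits, and in Mptx1 in 1 of them. The fitted 1.72 is no measured rise of Mptx1, whose values rose by 0.82 from 42 to 44 h. Its means of 4 arrays were 11.69 at 36 to 42 h and 11.57 at 44 to 50 h.

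Neither 2210407C18Rik nor Mptx1 nor Enpep was called for a 24 h rhythm by limma, in which 2.59% of probe sets were called. None of them had an unadjusted p under 0.05. The amplitudes were 0.07 ± 0.10 for 2210407C18Rik, 0.16 ± 0.15 for Mptx1 and 0.17 ± 0.24 for Enpep (SE, n = 24, limma adjusted p = 0.905, 0.768 and 0.895). With a step at 44 h the amplitude of Enpep was called, at 0.48 (limma adjusted p = 0.0396). For Prg4, dim on 17 arrays, the amplitude of 0.17 ± 0.25 is given as a description with no test. It was 0.40 with a quadratic drift.

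By the fitted linear change over the 46 h, which the choice of genes used, Prg4 (−5.28) ranked 1, 2210407C18Rik (−4.26) ranked 3 and Mptx1 (−3.56) ranked 7 among 9825 genes. This order is by the fitted line and rests on dim late values for Prg4. By the means of 4 arrays C9 changed by −2.26 from 12 to 18 h to 36 to 42 h and by −2.79 from there to 52 to 58 h, and Prg4 by −4.44 and −0.26. C9, Igf2, Gsta2 and Adh1 filled the places between, and Rdh7 and Myo1a followed. Enpep, with a fitted change of 0.33 ± 0.59, stood at place 7421. Of all probe sets 16.7% fell and 24.9% rose by this test, and after centring each array on its median 3952 fell and 3653 rose, against 3087 and 4604 before. When the course was cut at 42 h, Enpep stood 18th by the difference of 36 to 42 h from 12 to 18 h, at −1.68, and Prg4 first at −4.44.

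A fall of at least 1 log2 unit and a later rise of at least 1, as in Enpep, was seen in 9 of 9825 genes. Of the 69 genes that were lower by at least 1 log2 unit at 36 to 42 h than at 12 to 18 h, 9 were higher again by at least 1 at 52 to 58 h than at 36 to 42 h, 18 were lower by at least 1 more, and 42 had moved by less than 1. Enpep (1.88 up) was among the 9, with the plasma protein gene Ahsg (1.31 up), the neutrophil protein gene S100a9 (1.30 up), Lpl (2.05 up), Cd53, Rrp12, Lhfpl2, Dancr and BC016579. 2210407C18Rik (−1.62) and Mptx1 (−1.31) were among the 18, and Prg4 (−0.26) among the 42. These windows and the threshold of 1 were chosen after the values had been seen. The share of all genes with such a later rise was not counted, so the 9 are not read as few or many.

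**Figure D4:**
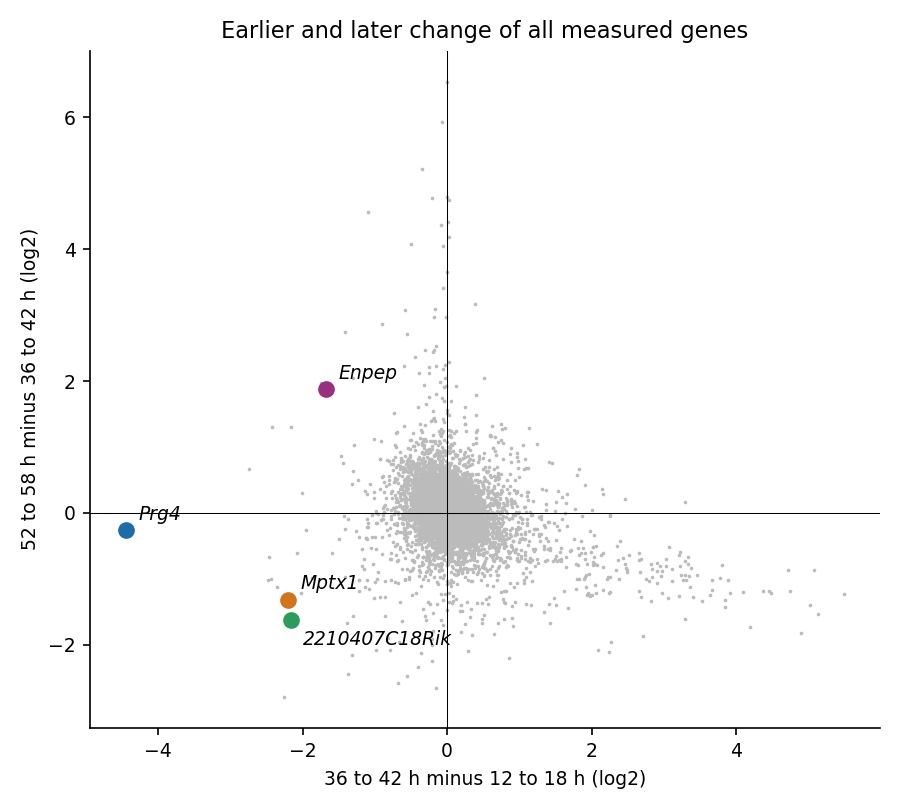
Difference of the mean log2 value at 36 to 42 h from that at 12 to 18 h (horizontal axis) and of 52 to 58 h from 36 to 42 h (vertical axis) for 9825 genes, 1 grey point each, with the 4 genes marked. Enpep lies up on the left at −1.68 and 1.88, Prg4 far left near the line of no later change, and Mptx1 and 2210407C18Rik down on the left.

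Mptx1, Enpep and 2210407C18Rik were lower at 26 and 28 h than at any of 22, 24, 30 and 32 h, a feature noticed after the values had been seen. The mean of 26 and 28 h minus the mean of 22, 24, 30 and 32 h was −1.14 for Mptx1, −1.12 for Enpep and −0.80 for 2210407C18Rik. A straight fall gives 0 for this difference, and its median over 9825 genes was −0.0020. Of all genes, 0.285% lay as low as Mptx1, 0.316% as low as Enpep and 0.712% as low as 2210407C18Rik. Prg4 had no such dip, since its 26 h value lay between those at 24 and 28 h. Its difference was −0.41, and 3.10% of all genes lay as low, but its values were below 5 from 26 h on. The array medians at 26 and 28 h were 9.04 and 9.05, within the range of 8.96 at 40 h to 9.14 at 46 h over all arrays. After centring each array on its median the differences were −1.12 for Mptx1, −1.10 for Enpep, −0.78 for 2210407C18Rik and −0.39 for Prg4.

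The genes most like Mptx1 over the 24 arrays, by Pearson correlation of log2 values, were Tm4sf20 (0.987), the brush border myosin gene Myo1a (0.981), Tmigd1 (0.979), the steroid dehydrogenase gene Hsd17b2 (0.974) and the intestinal fatty acid binding protein gene Fabp2 (0.974). With the linear term removed, Tm4sf20 was again first (0.952), before Pnliprp2 (0.946) and Ms4a8a (0.935). Tm4sf20 stood at 5.58 at 58 h, against 9.36 at 12 h, and Myo1a at 5.98, against 9.98. The time course shared by these arrays makes high values common, so they are descriptions.

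2210407C18Rik was most like the aldehyde dehydrogenase genes Aldh1a7 (0.979) and Aldh1a1 (0.969), then Cyb5b (0.963), Hsd17b2 (0.963) and the fucosyltransferase gene Fut2 (0.962), with Mptx1 in eighth place (0.957). Without the linear term its closest genes were 1700016C15Rik (0.872), Teddm3 (0.850) and the epoxide hydrolase gene Ephx2 (0.848), while Mptx1 gave 0.687. Prg4 was most like Nudt19 (0.949), the mitochondrial superoxide dismutase gene Sod2 (0.930), Sumo3 (0.927), Bcl2l15 (0.926) and Rbmx (0.921). Of these, Bcl2l15 was lower at 58 h by several log2 units, at 6.58 against 10.13 at 12 h, and the others moved far less than Prg4. Without the linear term Prg4 was closest to Rrs1 (0.899), Ahsg (0.899) and S100a9 (0.893). Prg4 was dim on 17 arrays and level on the late ones, so its likenesses rest in large part on values near its floor.

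Enpep was most like the kinase gene Dyrk2 (0.922), Naa25 (0.894), Zfp397 (0.880), Dph6 (0.870) and Ube2f (0.870), and without the linear term Dyrk2 (0.924), Deptor (0.909) and Naa25 (0.907). These genes moved less, with Dyrk2 −0.27 at 36 to 42 h relative to 12 to 18 h and 0.34 at 52 to 58 h relative to 36 to 42 h. The correlation of Enpep was 0.20 with Prg4, −0.13 with 2210407C18Rik and −0.0016 with Mptx1. Without the linear term it was 0.78 with Prg4, which was dim on 17 arrays, 0.12 with 2210407C18Rik and 0.39 with Mptx1.

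Other genes of the intestinal epithelium fell along with Mptx1 and 2210407C18Rik. Of the 25 measured genes of this list other than these members, 13 fell, 0 rose and 12 were not called by limma, with a median change of −0.65 over the 46 h. Over all 9825 genes 16.4% fell and 26.3% rose, with a median of 0.073. Fabp2 fell by 2.63 ± 0.27 (limma adjusted p = 1.53e-07), with a mean of 9.59 at 52 to 58 h, against 12.45 at 12 to 18 h. Myo1a fell by 3.30 ± 0.40 (limma adjusted p = 1.19e-06), with 6.60 at 52 to 58 h, against 10.07 at 12 to 18 h. In settings added after the data were seen, 8 of the 25 fell and 3 rose when 44 to 58 h was left out, and 15 fell and 0 rose when 12 to 18 h was left out. The intestinal transcription factor gene Cdx2, named here after its value was seen, changed by −0.15 and was not called (limma adjusted p = 0.602). Of the 6 enteroendocrine and Paneth cell markers on the array none was measured.

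**Figure D5:**
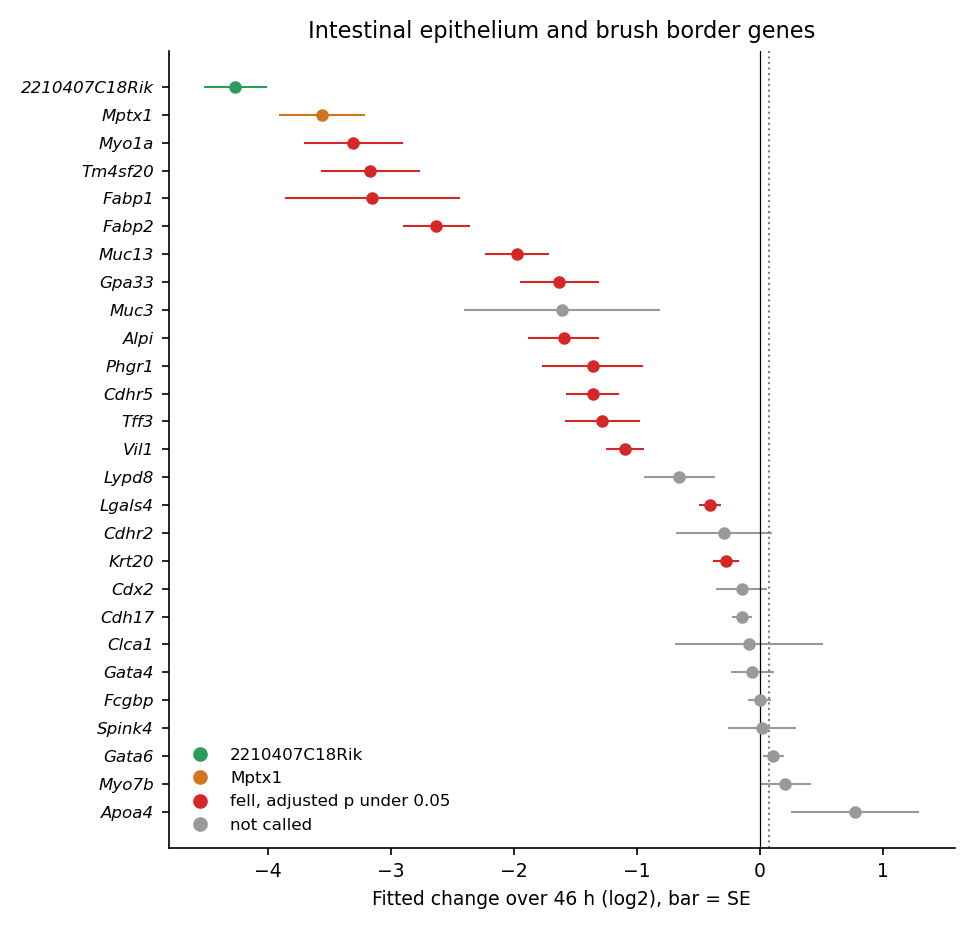
Fitted log2 change over 46 h (points) with its SE (bars) for the 27 measured genes of the intestinal epithelium and brush border list, in order of size. Green and orange are 2210407C18Rik and Mptx1, red marks genes that fell past the threshold, grey those not called, and the dotted line is the median of all genes at 0.073. No gene of the list rose past the threshold.

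Among pentraxins and secreted lectins, 9 genes were measured beside Mptx1, of which 6 fell and 0 rose by limma, with a median change of −0.78, against 16.4% falls and 26.3% rises over all genes. The lectin genes Reg3b, Reg3g and Reg1, whose proteins are secreted in gut and pancreas, fell by 1.65 ± 0.10, 2.33 ± 0.16 and 1.20 ± 0.15 (limma adjusted p = 3.88e-11, 1.57e-10 and 1.49e-06). Another probe set of Reg3b fell by 2.37. Reg3g had a mean of 11.37 at 52 to 58 h, against 13.67 at 12 to 18 h. Apcs, a pentraxin gene that was measured as Crp was, had means of 9.44 at 12 to 18 h, 8.56 at 20 to 26 h and 9.25 at 52 to 58 h, and is named after its values were seen.

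Peptidases and angiotensin genes were counted beside Enpep. Of 14 measured genes other than Enpep, 1 had positive and 5 negative curvature by limma, against 18.6% and 15.3% of all genes. An upward step at 44 h was called for 1, Atp6ap2, and a downward step for 5, against 26.6% and 17.3% of all genes. In the linear test, in which Enpep itself was not called, 6 fell, 3 rose and 5 were not called, with a median of −0.23, against 16.4% falls and 26.3% rises over all genes. Rnpep, Erap1 and Rnpepl1, which encode aminopeptidases, fell by 0.65, 0.70 and 0.33 (limma adjusted p = 1.19e-05, 0.000901 and 0.00241), although another probe set of Erap1 gave −0.11 (limma adjusted p = 0.373). Mep1b, a meprin subunit of the brush border, had means of 5.78 at 12 to 18 h, 4.76 at 20 to 26 h and 4.05 at 52 to 58 h. Its mean lay below 5 in each block from 20 h on. Its fitted change of −1.17 ± 0.38, counted among the 6 falls, is therefore given as a description with no test. Atp6ap2, the prorenin receptor gene, rose by 0.84 ± 0.09 and Prcp, a carboxypeptidase gene whose product cleaves angiotensin II, by 1.20 ± 0.14 (limma adjusted p = 3.08e-07 and 8.39e-07). Prep rose by 0.25 (limma adjusted p = 0.0134), with 0.079 in another probe set. The angiotensin receptor genes Agtr1a, Agtr1b and Agtr2 lay at or near the lowest value of the table, as did Anpep. Without the arrays at 44 to 58 h, 2 of the 14 fell and 5 rose.

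Of 10 measured genes of proteoglycans, hyaluronan and partners of lubricin beside Prg4, 1 fell, 2 rose and 7 were not called by limma, with a median of −0.0071. These counts are near the shares over all genes, 16.4% for falls and 26.3% for rises. Sdc4 fell by 0.50 ± 0.13 (limma adjusted p = 0.00313), while its other probe set gave 1.08 (limma adjusted p = 0.0797). By the fitted line Hyal2 rose by 0.42 and Agrn by 0.40 (limma adjusted p = 0.0163 and 0.0237). Another probe set of Agrn gave 0.041. Hyal2 averaged 7.15 in the first block of 4 arrays and 7.19 in the last block. Its fitted 0.42 is therefore no measured rise of that size. For Agrn these block means were 12.12 and 12.41. After centring each array 4 fell and 1 rose. Cd44, which encodes a receptor that binds lubricin, averaged 15.04 ± 0.0602 (SD, n = 24) and is named after its value was seen.

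Markers of other cell types were set beside the falls. Among the 8 measured hepatocyte markers 5 fell and 1 rose, against 16.4% and 26.3% of all genes, with changes of −2.54 ± 0.42 for Apoa1, −1.45 ± 0.16 for Serpina1b, −1.37 ± 0.15 for Fgb and −1.34 ± 0.21 for Ttr (limma adjusted p = 5.34e-05, 3.45e-07, 3.03e-07 and 2.27e-05), and 0.54 for Rbp4 (limma adjusted p = 0.000594). Among 4 bile duct markers Epcam fell by 1.29 ± 0.25 (limma adjusted p = 0.000267). Among 4 mesothelial markers Wt1 fell by 0.39 and Msln rose by 0.43 (limma adjusted p = 0.00131 and 1.95e-05). Of 3 measured macrophage markers none was called in the linear test. From 12 to 18 h to 36 to 42 h, however, Cd68 changed by 2.15, Cd14 by 0.12 and Csf1r by −0.20. Cd68 then changed by −1.17 to 52 to 58 h. These values are given after they were seen. The part of a changing mixture of cells in the falls of the 4 genes was not tested.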

How the data were processed

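RNA of 24 samples was hybridised to single-colour Affymetrix mouse arrays. The table that the authors deposited holds 1 log2 value for each probe set and array. The submitters' processing notes name GCRMA, whose version and settings are not given in the sources used here, and the range of the numbers shows the log2 scale. Of all entries 41.2% stood at the minimum, 2.17, over the 45037 probe sets that are no controls. Gene symbols came from GEO's platform annotation, with 34945 probe sets of 1 symbol, 932 of several and the others of none. Control probe sets (64) were left out. Where a gene had several, the brightest on average stood for it.

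Models were fitted with limma 3.58.1 in R 4.3.3 with a variance prior that follows mean level. Curves were fitted by least squares with scipy 1.17.1. Intervals of the decay come from the F ratio, those of halving times from the slope. The half-fall time is the crossing of the midpoint between the means of 12 to 18 h and 52 to 58 h by a running median of 3 arrays. On simulated data of 18526 probe sets, 88% of linear changes of 1 and 100% of those of 2 were recovered, with 11 false calls. The simulated noise was independent from array to array. Noise shared by neighbouring time points was not simulated, so recovery and false calls in the real series may differ. The members and gene lists were chosen with earlier results of these data known. Named genes are the members, the 5 most like each and 3 without the linear term, and up to 4 rises and 4 falls of smallest p per list; others are said to be named after their values. The number of arrays limits the precision.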

Additional observations from a re-analysis of the deposited data

How the results depend on the processing

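The alternatives covered normalization, filter, variance prior, covariates and arrays left out. 2210407C18Rik and Mptx1 kept their direction of linear change in all of them. For Prg4 the linear change was −3.63 without 12 to 18 h and −8.66 without 44 to 58 h, and for Enpep 1.94 and −3.17. Leaving out single arrays moved it from −5.64 to −4.85 for Prg4, −4.44 to −4.16 for 2210407C18Rik, −3.79 to −3.41 for Mptx1 and 0.025 to 0.72 for Enpep, and the counts from 2766 to 3437 for falls and 4097 to 5326 for rises. Rises numbered 2657 without 44 to 58 h.
Prg4 was kept by the filter only through its early arrays, so its terms below are values and support nothing. Its rhythm amplitude was 0.58 without 44 to 58 h, 0.40 with a quadratic trend and 0.43 with quadratic and step together, a setting added after the data were seen. The rhythm of Enpep passed the threshold at 0.48 with the step. Rhythmic probe sets numbered 198 with no filter, 2672 without 12 to 18 h, 1602 without 44 to 58 h, 40 with a 4 df spline, 2064 with a quadratic trend, 2704 with the step and 1509 with both, and 174 (without 26 h) to 706 (without 18 h) with 1 array left out. With 1 array left out the amplitudes ran from 0.039 to 0.30 for Prg4, 0.039 to 0.14 for 2210407C18Rik, 0.10 to 0.25 for Mptx1 and 0.096 to 0.33 for Enpep.
Curvature was 1.97 for Prg4 without 44 to 58 h, and the call was lost for Enpep without 12 to 18 h (1.37) and with the step (0.72), and Enpep gave −1.67 without 44 to 58 h, where the turn is absent by construction (limma adjusted p = 0.386). Negative and positive probe sets numbered 53 and 29 without 12 to 18 h, 221 and 71 with the step, and 59 and 21 without 44 to 58 h. With 1 array left out the counts ran from 2083 to 2578 and 2521 to 3594, and the curvature from 2.42 to 2.55 for Prg4, −0.40 to −0.18 for 2210407C18Rik, −0.24 to −0.015 for Mptx1 and 1.81 to 2.16 for Enpep.
The step of Prg4 was 1.27 without 12 to 18 h and −0.14 with the quadratic term, where that of Mptx1 was called at 1.72. Negative and positive steps numbered 743 and 1653 without 12 to 18 h and 785 and 1873 with the quadratic term. With 1 array left out the counts ran from 2352 to 3157 and 4171 to 5156, and the step from 2.18 to 2.72 for Prg4, −0.27 to 0.092 for 2210407C18Rik, 0.32 to 0.75 for Mptx1 and 2.501 to 3.001 for Enpep.
On the linear scale the half-fall time was 22.1 h for Prg4, 23.7 h for 2210407C18Rik and 24.1 h for Mptx1. For Mptx1 a logistic curve passed the log2 midpoint at 36.0 h. With 1 array left out the log2 half-fall time ran from 24.0 to 25.4 h for Prg4 and 36.6 to 37.5 h for 2210407C18Rik. For Mptx1 it ran from 25.6 to 36.8 h (without 26 h). At a filter of log2 7 Prg4 was not tested. No paired analysis was possible because each time point had 1 array.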
